A study of Homo sapiens with 12 samples.

Results

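The 77 human genes named MRPL or MRPS code for most of the proteins of the mitochondrial ribosome, and their mRNAs were followed across 4 groups of exon arrays. Members were found as probe sets whose only gene symbol was MRPL or MRPS with a number and at most 1 letter A, B or C, without pseudogenes. This gave 77 of the 19488 genes with a symbol, 49 of them MRPL and 28 MRPS, and covered all 77 protein-coding RefSeq genes with such a name. They carried 880 probe sets, of which 734 passed a filter on dim signal (a mean over the 12 arrays above 2.04 on the log2 scale, the median of all probe sets). A gene's value on an array was the mean log2 value of its remaining probe sets, and the 76 members with at least 3 of them were tested among 16883 genes. The filter used the mean over all arrays, so a probe set could pass through the group where it was bright. The remaining member, MRPS28, kept 1 probe set and was not tested. The annotation's MRPS36 is now named KGD4, a 2-oxoglutarate dehydrogenase subunit, and was left out.

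The mitochondrial ribosome makes the few proteins coded by mitochondrial DNA, which are core subunits of the respiratory chain and of ATP synthase. Its RNAs come from mitochondrial DNA, but all of its proteins are coded in the nucleus. Their mRNAs are therefore capped in the nucleus, translated in the cytoplasm, and their products imported into mitochondria. Some of these proteins have bacterial counterparts and others are found in mitochondrial ribosomes alone. A cap shields the 5′ end of an mRNA. Xrn1 is an exonuclease that degrades RNA bearing a 5′ monophosphate from that end and leaves capped RNA.

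The study asks which cytoplasmic mRNAs are capped again by a cytoplasmic form of the capping enzyme. U2OS, a human osteosarcoma line, carried K294A, an inactive form of that enzyme, in a stable line, and all 4 groups came from these cells. Cytoplasmic RNA was depleted of ribosomal RNA, and part of it was digested with Xrn1. Induced Xrn1 arrays (n = 3) came from cells given doxycycline at 1 ug/ml for 24 h and from RNA digested with Xrn1. Induced untreated arrays (n = 3) came from cells given the same doxycycline and from RNA not digested. Uninduced Xrn1 arrays (n = 3) came from cells without doxycycline and from digested RNA. Uninduced untreated arrays (n = 3) came from cells without doxycycline and from RNA not digested. The labels call the samples biological replicates without stating separate cultures, so each p rests on the spread between these samples, and with 3 arrays in each group the precision is low. The title of 1 induced Xrn1 array carries the same replicate number as another, and it was placed by its sample number.

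The arrays differed in signal. Genes above a value of 6 numbered 144 to 298 on induced Xrn1 arrays, 327 to 823 on induced untreated arrays, 110 to 151 on uninduced Xrn1 arrays and 760 to 1114 on uninduced untreated arrays. Across the 76 members, arrays of 1 group correlated at 0.940 to 0.962 for induced Xrn1, 0.771 to 0.905 for induced untreated, 0.724 to 0.933 for uninduced Xrn1 and 0.748 to 0.950 for uninduced untreated. Replicate 3 of the induced untreated arrays had r = 0.874 and 0.771 with the others of its group, and 0.940, 0.796 and 0.963 with the uninduced untreated arrays. On the untreated arrays COL1A1 (8.15 to 9.16), SPARC (7.94 to 9.22) and VIM (6.85 to 7.80), genes of bone-forming and mesenchymal cells, were bright, while the bone genes ALPL (1.83 to 2.92) and COL1A2 (2.57 to 3.50) were dim. The summed value of 9 markers of other cell types was 29.8 to 30.5 on induced Xrn1 arrays, 25.1 to 30 on induced untreated arrays, 24.9 to 29.5 on uninduced Xrn1 arrays and 26.2 to 30.2 on uninduced untreated arrays. Of these 9, 3 rose after Xrn1 in induced cells and 0 in uninduced cells in limma, where 21.6% and 7.24% of all genes rose. The bone-side markers RUNX2 (2.68 to 4.05) and TNFRSF11B (3.48 to 5.58) lay between. On untreated arrays PTPRC, of blood cells, ranged over 1.72 to 2.86, ALB, of liver, over 1.96 to 3.26 and EPCAM, of epithelia, over 2.56 to 4.13. CD3E, of T cells, was the brightest of the 9, at 4.02 to 5.00, above ALPL and COL1A2. Of the 7 bone-side and mesenchymal markers, 3 fell and 0 rose in each set of cells, where 17.8% (induced) and 31.8% (uninduced) of all genes fell. The part of such markers in the results was not tested. RNGTT, the gene of the capping enzyme, had a difference of 0.21 between induced untreated and uninduced untreated arrays (limma adjusted p = 0.685); whether its probe sets match the transgene is unknown, so this checks no label.

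The 5′ end is where a cap sits and where Xrn1 starts, so the first 30 transcribed bases are shown for 4 members with large falls and 4 with large rises after Xrn1 in induced cells, and for MRPL42. RefSeq (GRCh38.p14) gave a window of 250 bases before to 50 after the annotated start for 69 members; MRPL2, MRPL10, MRPL13, MRPL15, MRPL21, MRPL23, MRPL35 and MRPS28 had none. Capitals mark AAGATGG, letters of the site bound by the transcription factor YY1. The members shown, in the order of the lines, lie at chr3:131502942-131502971 (minus strand), chr6:42217832-42217861 (minus), chr3:179604609-179604638 (minus), chr4:77862830-77862859 (plus), chr12:93467514-93467543 (plus), chr19:3762682-3762711 (plus), chr19:38930944-38930973 (plus), chr9:137551879-137551908 (plus) and chr9:135500682-135500711 (plus).
MRPL3: gcagagagcatcggccggcgaccgttccgg
MRPS10: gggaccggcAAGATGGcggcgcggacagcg
MRPL47: agttatgcgaaaacatggctgcggccggtt
MRPL1: gcaatccggagtgcccaacatggcggcggc
MRPL42: attgaaacAAGATGGcgggttcgtggtgag
MRPL54: aagctgcccgcaatacgtcatggcgaccaa
MRPS12: agaggctagaagctggattcagcgtgtccg
MRPL41: gctcttgctgcgacgcagcggtcggaagcg
MRPS2: gagacctcgctctgccccgcgtcccagcca

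AAGATGG, searched on both strands of the whole window, was present in 23 of the 69 members (33.3%), against 6.4% of protein-coding genes, 14.8% of cytosolic ribosomal protein genes and 6.06% of all windows. In 16 members it lay on the coding strand after the start, as in MRPS10 and MRPL42, from bases 10 and 9 of the transcript. The 23 members with these letters had a median Xrn1 change of 0.08 in induced cells and -1.19 in uninduced cells, and the 46 without them 0.09 and -0.67. No test was made of this split. Both kinds were among members that fell, since MRPL3 and MRPL1 have no match and MRPS10 and MRPL42 have one, and MRPL20, with the highest change in uninduced cells, has one from base 16. A match describes these letters and not a bound site.

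The mRNAs of cytosolic ribosomal proteins are known for a 5′ end that starts with C and a run of pyrimidines. A C followed by 4 bases that are each C or T opened the transcript of 5 of 69 members (7.25%), near the 4.04% of all windows, against 42 of 61 cytosolic ribosomal protein genes (68.9%). The start is shown for 3 of the 5, with the opening run in capitals, at chr2:223957463-223957482 (plus), chr17:38297168-38297187 (plus) and chr5:72320221-72320240 (minus). The remaining members of the 5 were MRPL53 and MRPS33, and in 2 of the 5, MRPL45 and MRPS27, AAGATGG also follows, outside the run.
MRPL44: CTCTCgtgcaatggcgtccg
MRPL45: CCTTTgcgggaacaagatgg
MRPS27: CCTTTTggtacgctccaaga

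The median member stood at 4.19, 3.87 and 4.13 on the induced Xrn1 arrays, against 3.55, 4.38 and 4.12 on the induced untreated arrays. These groups overlapped. It stood at 3.62, 3.54 and 3.71 on the uninduced Xrn1 arrays, against 4.47, 4.13 and 4.50 on the uninduced untreated arrays, and here every Xrn1 array was below every untreated array. RMA, the authors' normalisation, in its usual form makes the distribution of probe signals alike on all arrays, so a change is relative to the other RNAs on the array; the medians of the deposited values ran from 2.09 to 2.25. Between induced and uninduced cells, bulk RNA does not tell fewer cells that hold an mRNA from less of it per cell.

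**Figure D1:**
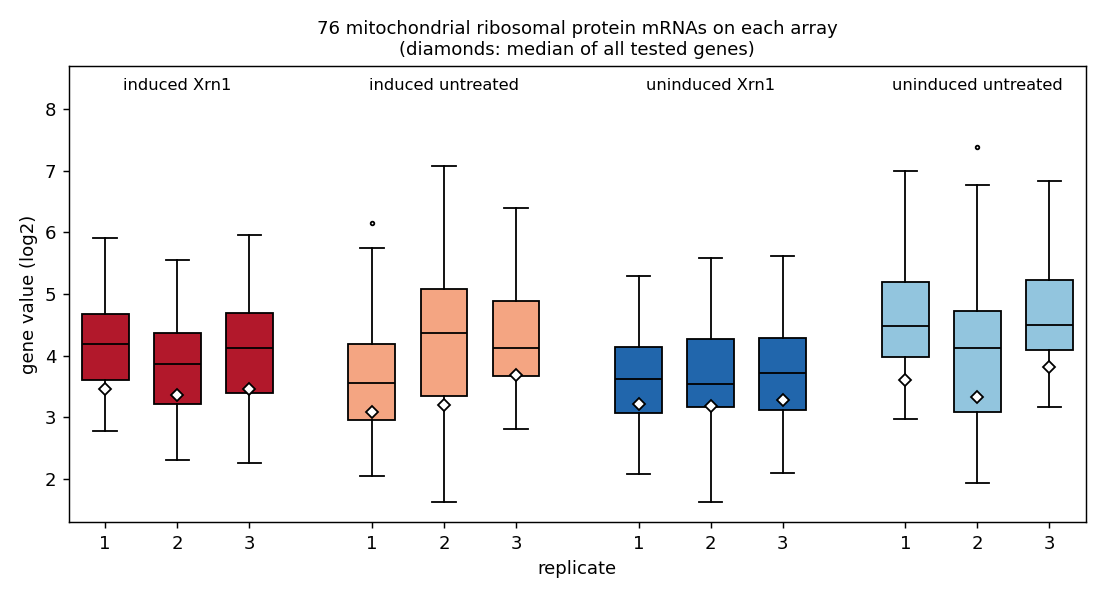
Values (log2) of the 76 tested members on each of the 12 arrays, as boxes (median, quartiles, whiskers to 1.5 times the quartile range), with the median of all tested genes as a diamond. The boxes of the uninduced Xrn1 arrays have medians of 3.54 to 3.71, below the 4.13 to 4.50 of the uninduced untreated arrays, while the 2 induced groups overlap.

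In induced cells, Xrn1 moved members both ways. Among the 76, 13 fell (17.1%) and 13 rose (17.1%) at an adjusted p under 0.05 in limma, where 17.8% of all tested genes fell and 21.6% rose, so both shares were near the background. The median change of members was 0.07, and that of all genes 0.10. The groups did not overlap for 15 members that were lower and 16 that were higher, against 22.6% and 28.3% of all genes. Members named below for large falls or rises in a set of cells were picked among those called without overlap in that set. Their lack of overlap there follows from that choice and adds no evidence.

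MRPL3, a bacterial-type protein on the side of the peptidyl transferase centre, had the largest fall in induced cells. Its values were 4.75, 3.84 and 4.42 on induced Xrn1 arrays, against 5.74, 7.08 and 6.40 on induced untreated arrays. All Xrn1 arrays lay below all untreated arrays, and the change was -2.07 ± 0.34 (SE, limma adjusted p = 8.16e-08). Of its 24 probe sets, 21 had a negative change and 16 fell when probe sets were tested singly. MRPS10, a bacterial-type protein of the small subunit, had 3.46, 2.74 and 2.49 on induced Xrn1 arrays and 4.17, 5.36 and 4.71 on induced untreated arrays. The groups did not overlap, and the change was -1.85 (limma adjusted p = 2e-06). MRPL47, at the exit of the peptide tunnel, had 3.98, 3.01 and 3.44 on induced Xrn1 arrays and 4.78, 6.12 and 4.98 on induced untreated arrays, again without overlap, with a change of -1.81 (limma adjusted p = 3.3e-06). MRPL1, of the mobile L1 stalk, had 3.04, 2.36 and 2.26 on induced Xrn1 arrays and 3.76, 4.88 and 3.79 on induced untreated arrays. These did not overlap, and the change was -1.58 (limma adjusted p = 6.29e-05).

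The other named falls in induced cells were smaller, between -1.20 and -1.02. They were MRPS27 (-1.20) and MRPL42 (-1.18), both specific to mitochondria, MRPL44 (-1.16), which has a ribonuclease III-like fold, and the bacterial-type proteins MRPL35 (-1.12), MRPS16 (-1.10) and MRPL30 (-1.02). MRPL30 also shared 7 probe sets with C2orf15, which were not used. With dim probe sets kept in, MRPL42 was not called (-0.73), nor was MRPS16 after cyclic loess (-0.40) or MRPL44 when probe sets were summarised by their median (-0.69). Without induced untreated replicate 2, MRPS27, MRPL44, MRPL35, MRPS16 and MRPL30 were no longer called, at -0.96, -0.91, -0.81, -0.97 and -0.71, and without induced Xrn1 replicate 2 the last 4 were not called, at -0.99, -0.95, -0.94 and -0.93; MRPL30 was also not called without induced Xrn1 replicate 3, at -0.96.

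MRPL54, a mitochondria-specific protein, had the largest rise in induced cells. Its values were 4.46, 4.46 and 4.45 on induced Xrn1 arrays, against 2.69, 1.94 and 3.84 on induced untreated arrays. The Xrn1 arrays were nearly equal and above all untreated arrays, and the change was 1.63 ± 0.34 (SE, limma adjusted p = 3.61e-05), from 3 probe sets. MRPS12, next to the decoding centre, had 4.23, 4.25 and 4.26 on induced Xrn1 arrays and 2.62, 2.70 and 3.75 on induced untreated arrays. There was no overlap, and the change was 1.23 (limma adjusted p = 0.00232). MRPL41, a mitochondria-specific protein, had 4.27, 4.35 and 4.04 on induced Xrn1 arrays and 2.84, 2.77 and 3.39 on induced untreated arrays, without overlap and with a change of 1.22 (limma adjusted p = 0.00251). MRPS2, a bacterial-type protein of the small subunit, had 4.68, 4.39 and 4.77 on induced Xrn1 arrays and 3.00, 2.98 and 4.31 on induced untreated arrays. The lowest Xrn1 array was just above the highest untreated array, and the change was 1.18 (limma adjusted p = 0.00334). In each of these 4 members the highest untreated array was replicate 3.

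The other named rises in induced cells lay between 0.98 and 1.11. They were MRPL23 (1.11), at the tunnel exit, MRPL52 (1.10) and MRPL38 (1.07), of the central protuberance, MRPL28 (1.05), a bacterial-type protein, and the mitochondria-specific MRPS26 and MRPS34 (0.98 each). Without induced untreated replicate 2, MRPS2 (0.96), MRPL23 (0.96), MRPL52 (0.60), MRPS26 (0.79) and MRPS34 (0.89) were not called. Without induced untreated replicate 1, MRPL38 (0.85), MRPL28 (0.81), MRPS26 (0.81) and MRPS34 (0.77) were not called. When probe sets were summarised by their median, MRPL23 (0.79) and MRPL28 (0.70) were not called. Leaving out an induced Xrn1 array ended the call of MRPL28 (0.94 without replicate 1), MRPL38 (0.99 without replicate 3), MRPS34 (0.85 without replicate 3) and MRPS26 (0.97, 1.01 and 0.98 without replicates 1, 2 and 3).

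**Figure D2:**
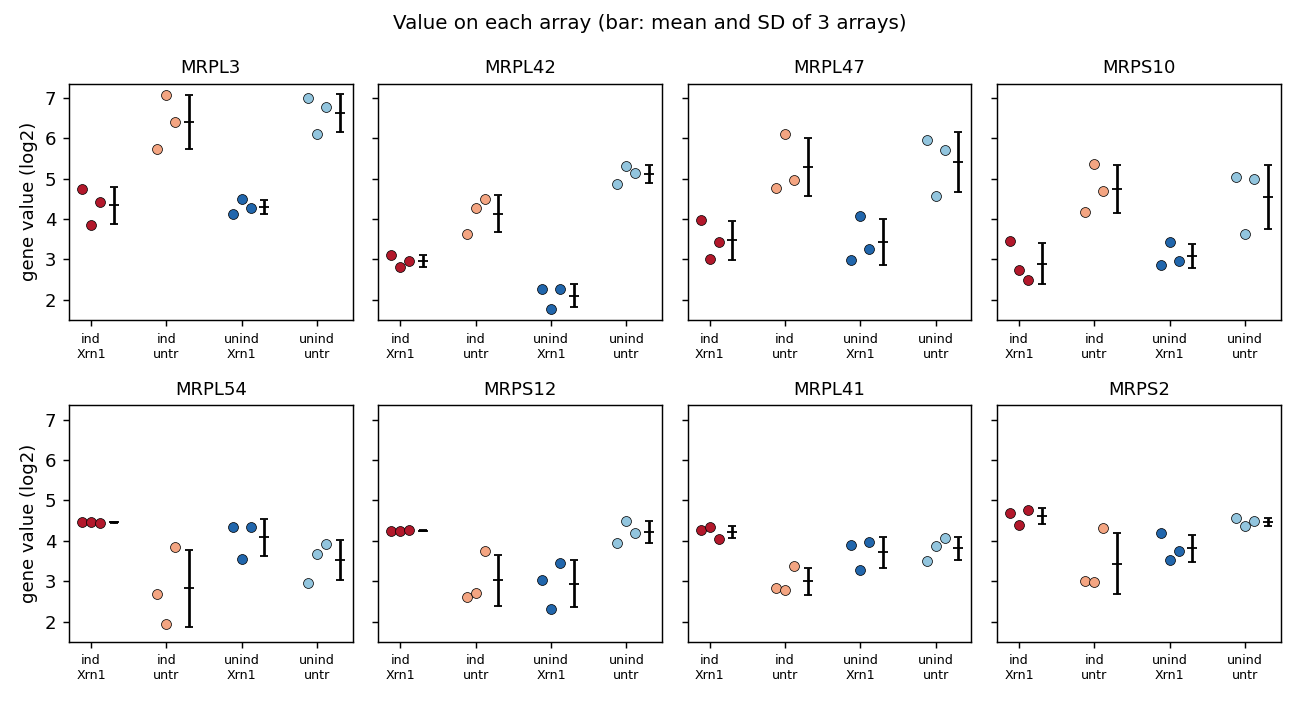
Value (log2) on each array for 4 members that fell (top row: MRPL3, MRPL42, MRPL47, MRPS10) and 4 with large rises (bottom row: MRPL54, MRPS12, MRPL41, MRPS2) after Xrn1 in induced cells. MRPL42 fell more in uninduced cells (-3.02) than in induced cells (-1.18). Points are arrays in the order of replicates 1 to 3, and bars give the mean and SD of 3 arrays (ind is induced, unind is uninduced, untr is untreated). The top members fell in both pairs of groups, and MRPS12 rose in induced and fell in uninduced cells.

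The counts in induced cells rested on single arrays and on the pooled spread. Without induced untreated replicate 1 there were 21 falls and 6 rises, where 20.9% of all genes fell and 15.6% rose, and the median change was -0.20 in members and 0.03 in all genes. Without induced untreated replicate 2 there were 5 of each, against 10.8% and 3.34% of all genes. Leaving out induced Xrn1 replicate 2 gave 6 falls (11.4% of all genes), and leaving out induced Xrn1 replicate 1 or 3 gave 8 or 7 rises (14.5% or 11.3% of all genes). limma estimated that all genes share a spread of 0.418, which left every gene the same standard error. With each gene's own spread instead, 3 members fell (MRPL3, MRPL42 and MRPS16) and 3 rose (MRPL23, MRPL38 and MRPL41), against 6.14% and 2.7% of all genes.

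In uninduced cells the changes of members were mostly falls. Among the 76, 33 fell (43.4%) and 0 rose in limma, where 31.8% of all tested genes fell and 7.24% rose. At an unadjusted p under 0.05, 42 were lower and 0 higher, where 35.6% and 11.7% of all genes were. In all, 64 members had a negative change, the median was -0.73, and that of all genes was -0.27. The groups did not overlap for 37 members that were lower and 0 that were higher, against 33.6% and 11.2% of all genes. With each gene's own spread 29 members fell and 0 rose, against 25.4% and 6.72% of all genes.

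MRPL42 had the largest fall in uninduced cells. Its values were 2.26, 1.76 and 2.26 on uninduced Xrn1 arrays, against 4.88, 5.32 and 5.14 on uninduced untreated arrays. The groups were far apart, and the change was -3.02 ± 0.34 (SE, limma adjusted p = 9.08e-17). All 8 of its probe sets had a negative change here. MRPL3 had 4.13, 4.49 and 4.28 on uninduced Xrn1 arrays and 7.0, 6.11 and 6.78 on uninduced untreated arrays. There was no overlap, and the change was -2.33 (limma adjusted p = 2.12e-10). MRPL45, a mitochondria-specific protein at the tunnel exit that ties the ribosome to the inner membrane, had 3.62, 2.71 and 3.46 on uninduced Xrn1 arrays and 5.31, 5.22 and 5.48 on uninduced untreated arrays. The change was -2.07 without overlap (limma adjusted p = 1.84e-08). MRPS35, a mitochondria-specific protein of the small subunit, had 3.81, 3.11 and 4.04 on uninduced Xrn1 arrays and 5.77, 5.84 and 5.51 on uninduced untreated arrays. Its groups were apart, with a change of -2.05 (limma adjusted p = 2.54e-08). MRPL58, a peptidyl-tRNA hydrolase that became a ribosomal protein, had 3.34, 3.31 and 3.74 on uninduced Xrn1 arrays and 5.49, 5.30 and 5.59 on uninduced untreated arrays, with a change of -1.99 (limma adjusted p = 6.81e-08) and no overlap.

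The next named falls in uninduced cells were MRPL47 (-1.98), MRPL49 (-1.95), MRPL50 (-1.64), MRPL39 (-1.62) and MRPL48 (-1.54), the last 4 of them mitochondria-specific. MRPL49 had 4.26, 3.73 and 4.05 on uninduced Xrn1 arrays, against 5.94, 6.15 and 5.78 on uninduced untreated arrays. All 10 named falls kept their call when any single array was left out, and the call of the largest, MRPL42, held at -3.14 to -2.85. The highest changes in uninduced cells were 0.59 in MRPL20 and 0.56 in MRPL54, and neither was called (limma adjusted p = 0.159 and 0.183).

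**Figure D3:**
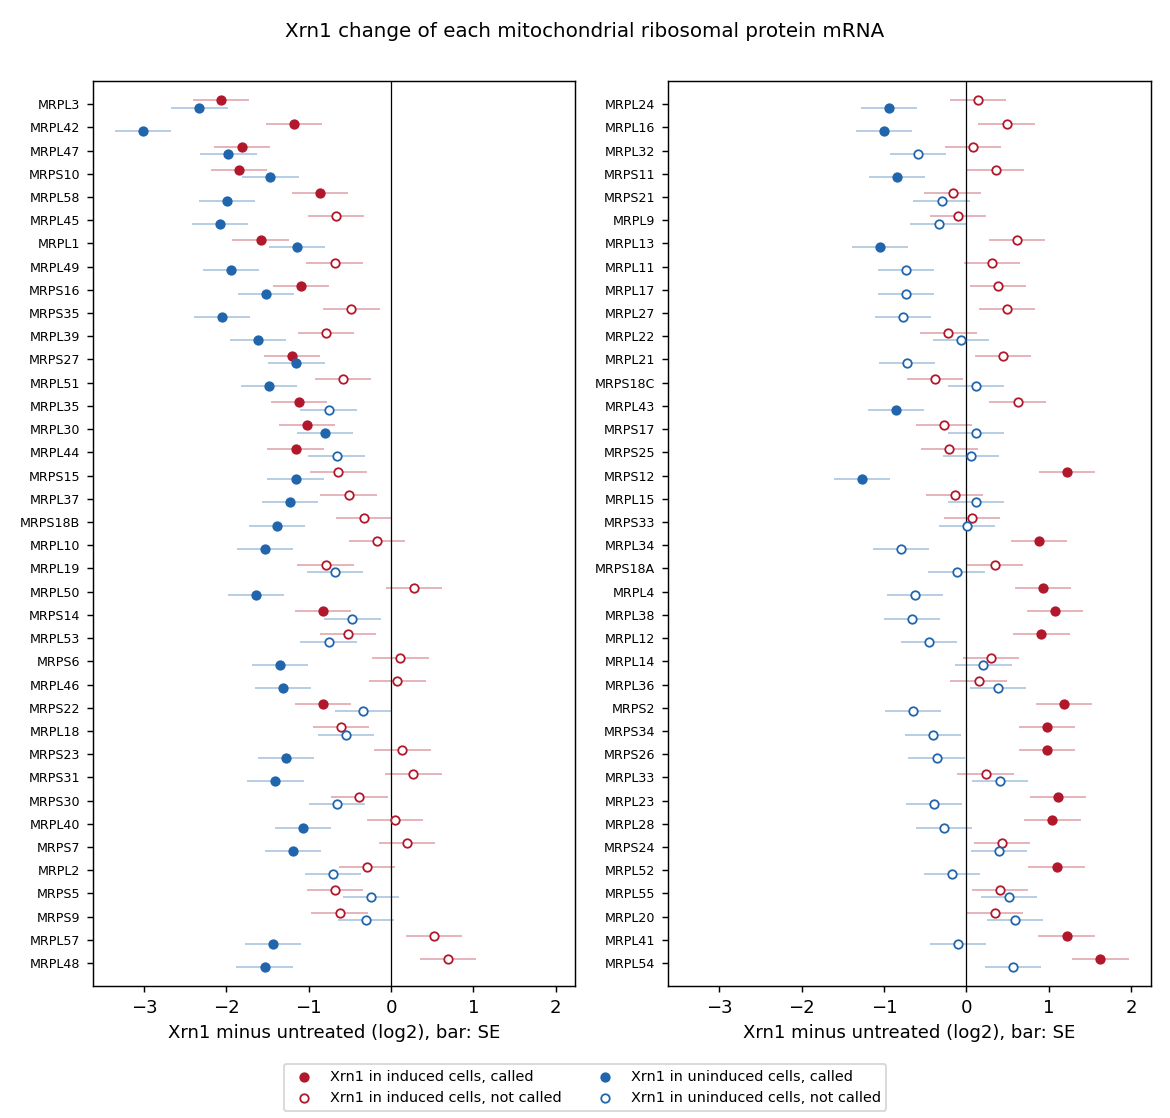
Xrn1 minus untreated (log2) of each of the 76 tested members in induced cells (red) and uninduced cells (blue), ordered by the mean of both; horizontal bars are 1 SE (0.34) and filled points passed an adjusted p of 0.05. Filled blue points lie left of 0 and open ones on both sides, while filled red points lie on both sides, 13 and 13.

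The counts and the median change in uninduced cells depended on scaling between arrays. Cyclic loess, which fits out differences that vary with the level, moved the median of all genes to 0.07 and gave 19 member falls and 9 rises (21.9% of all genes each way) with a median member change of 0.00. Centring each array on its median gene gave 26 falls and 6 rises, a median member change of -0.38 and 0.09 for all genes, of which 25.4% fell and 23.3% rose. In induced cells cyclic loess gave 16 falls and 16 rises (21.9% and 23.4% of all genes), and centring 20 and 13 (22.9% and 21.7%). The 10 named falls in uninduced cells kept their call under both. Cyclic loess gave MRPL42 -2.58 and MRPL3 -0.96.

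**Figure D4:**
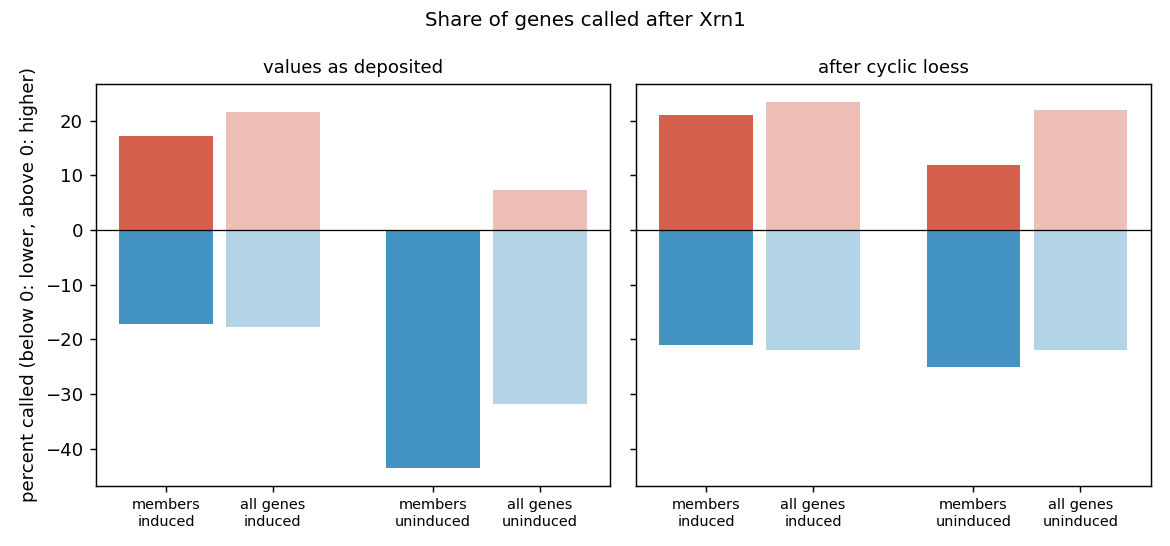
Percent of members (n = 76) and of all tested genes (n = 16883) called lower (below 0) or higher (above 0) after Xrn1, in induced and uninduced cells, from the deposited values (left) and after cyclic loess (right). In uninduced cells 43.4% of members and 31.8% of all genes fell on the deposited values, and after cyclic loess the share of all genes was 21.9% each way.

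Averaged over both sets of cells, 30 members fell (39.5%) and 2 rose (2.63%), where 29.8% of all genes fell and 14.2% rose; the median member change was -0.41 and that of all genes 0.05. Among members whose groups overlapped in neither set of cells, the largest falls were MRPL3 (-2.20 ± 0.24 SE, limma adjusted p = 3.95e-18), MRPL42 (-2.10), MRPL47 (-1.89), MRPS10 (-1.66), MRPL45 (-1.37), MRPS16 (-1.31), MRPS27 (-1.17) and MRPL51 (-1.03), a mitochondria-specific protein. MRPL58, whose induced groups overlapped, had -1.43. The rises were MRPL54 (1.10) and MRPL41 (0.56). With each gene's own spread 19 members fell and 2 rose, against 24.5% and 8.04% of all genes. After cyclic loess there were 21 falls and 19 rises among members, against 26.7% and 27.5% of all genes, MRPS16 was no longer called (-0.22) and MRPL51 had the opposite sign (0.22, limma adjusted p = 0.301). Centring gave 26 falls and 9 rises (28.9% and 31.8% of all genes). Leaving out single arrays left 21 to 35 falls, and 7 rises without induced untreated replicate 3 (23.3% of all genes); the rises numbered 1 without any 1 of the induced Xrn1 arrays, induced untreated replicate 1, uninduced Xrn1 replicate 1 or 3, or uninduced untreated replicate 1.

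The induced and uninduced sets share no array, although all arrays were normalised together. MRPL1, MRPL3, MRPL30, MRPL42, MRPL47, MRPL58, MRPS10, MRPS16 and MRPS27 fell in both. These 9 were 69.2% of the members that fell in induced cells and 27.3% of those that fell in uninduced cells, against 81.3% and 45.4% for all genes. Across the 76 members the changes in both sets correlated at r = 0.442, and at 0.595 across all genes; genes are not independent replicates. MRPS12 rose in induced and fell in uninduced cells, the other 12 members that rose in induced cells were not called in uninduced cells, and 27 members were called in neither.

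**Figure D5:**
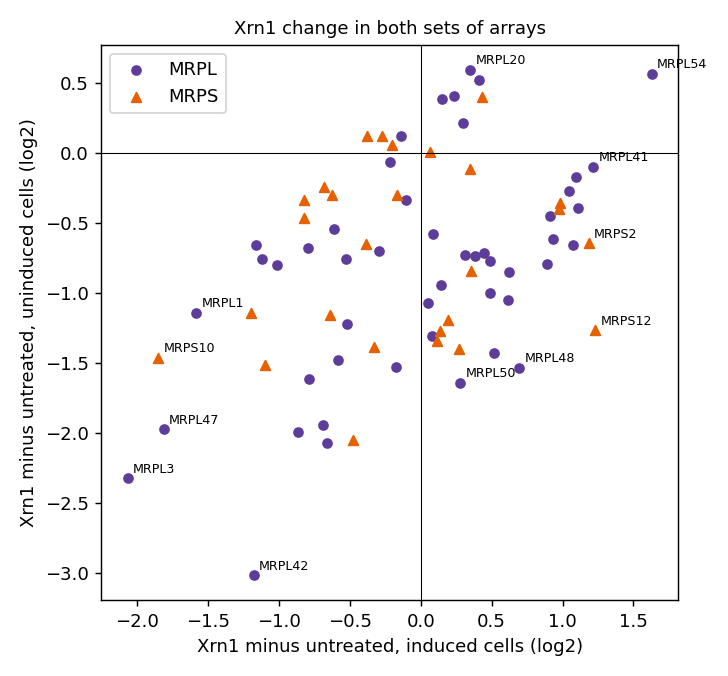
Xrn1 minus untreated (log2) of the 76 members in induced cells (horizontal) and in uninduced cells (vertical), with MRPL as circles and MRPS as triangles. Points below the horizontal line number 64, and 9 members in the lower left fell in both sets; MRPS12 lies at 1.23 and -1.27.

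The difference between both Xrn1 changes (induced minus uninduced) was tested itself. It was above 0 for 29 members (38.2%) and below 0 for 0 at an adjusted p under 0.05 in limma, where 20.6% of all genes were above and 1.23% below. Its median was 0.97 among members and 0.70 among all genes. MRPS12 had the largest difference, 2.50 ± 0.48 (SE, limma adjusted p = 0.000648). Its uninduced Xrn1 arrays had 3.04, 2.32 and 3.46, against 3.95, 4.49 and 4.19 on uninduced untreated arrays, a change of -1.27 without overlap, where the change in induced cells was 1.23. MRPL48, of the central protuberance, had a difference of 2.23 (limma adjusted p = 0.00275). Its values were 3.66, 3.29 and 3.59 on induced Xrn1 arrays and 2.43, 2.41 and 3.61 on induced untreated arrays, which overlapped. They were 2.50, 2.43 and 2.93 on uninduced Xrn1 arrays and 3.87, 4.38 and 4.22 on uninduced untreated arrays, which did not.

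The next differences were those of MRPL57 (1.95), MRPL50 (1.92), MRPL42 (1.84), MRPS2 (1.83), MRPL38 (1.73), MRPL34 (1.68), MRPS31 (1.68) and MRPL13 (1.67). MRPL34 and MRPL13 are bacterial-type proteins, and MRPL57, MRPL50 and MRPS31 are specific to mitochondria. In MRPL42 both changes were falls, -1.18 and -3.02, whereas MRPS2 had 1.18 and -0.65, of which the second was not called. With each gene's own spread no member and no gene at all was called, and the smallest adjusted p over all genes was 0.0925; at an unadjusted p under 0.05 with the pooled spread 38 members and 38.6% of all genes were above 0. Cyclic loess left 4 members above 0 (0.977% of all genes, with 1.53% below) and centring 8 (3.08% of all genes), and leaving out uninduced replicate 2 of both kinds left 0 (0.00592%). With the sample number in the titles as a block, 4 members were called. That count stands without the share of all genes, so it is not a result about members. The count also moved with single arrays, since 3, 14 and 2 members were called without induced Xrn1 replicates 1, 2 and 3 (0.687%, 8.31% and 0.272% of all genes). There were 2 without induced untreated replicate 1 (0.551%), 2 without uninduced Xrn1 replicate 2 (0.355%) and 10 without uninduced untreated replicate 3 (3.8%).

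By name, 8 of 49 MRPL members fell and 9 rose in induced cells (median 0.14), and 5 of 27 MRPS members fell and 4 rose (median -0.20), against 17.8% and 21.6% of all genes. In uninduced cells 21 MRPL members fell (42.9%, median -0.76) and 12 MRPS members (44.4%, median -0.65), against 31.8% of all genes. The names do not give the subunit exactly, since the proteins of MRPS18A and MRPS30 sit in the large subunit, and the structural lists place them there.

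In induced cells 3 of 20 proteins of the large subunit specific to mitochondria fell and 4 rose, and 5 of 31 bacterial-type proteins fell and 5 rose, where 17.8% of all genes fell and 21.6% rose. Among proteins of the large subunit specific to mitochondria, 13 of 20 fell in uninduced cells (median -1.27), with MRPL42 and MRPL58 as the members of smallest p, against 8 of 31 bacterial-type proteins (median -0.68), with MRPL3 and MRPL47, where 31.8% of all genes fell. The difference between these lists was not tested. After cyclic loess the counts were 9 falls and 1 rise of 20 and 4 falls and 7 rises of 31, against 21.9% of all genes each way. In the small subunit, 8 of 16 bacterial-type proteins (median -0.75; MRPS10 -1.46, MRPS16 -1.52) and 4 of 9 mitochondria-specific ones (median -0.40; MRPS35 -2.05, MRPS27 -1.15) fell in uninduced cells. After cyclic loess 3 fell and 1 rose of the 16 (median -0.08) and 3 fell of the 9 (median 0.03), and MRPS16 (-0.04) and MRPS27 (-0.48) were not called.

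By place in the large subunit, the stalk that recruits translation factors has MRPL10, MRPL11 and MRPL12. MRPL10 had -0.17 in induced cells and fell in uninduced cells (-1.53), MRPL12 rose in induced cells (0.91) and had -0.45 in uninduced cells, and MRPL11 was called in neither (0.31 and -0.73). On the side of the peptidyl transferase centre MRPL3 and MRPL16 fell in uninduced cells, 2 of 4, and MRPL2 had -0.71 there. At the central protuberance, which meets the head of the small subunit, 4 of 9 fell, among them MRPL58 and MRPL46 (-1.31). Around the tunnel exit 3 of 6 fell, MRPL45, MRPL47 and MRPL24 (-0.94). Of all genes 31.8% fell in uninduced cells, and lists this small were not tested against that share. After cyclic loess the uninduced counts were 0 falls and 1 rise of 3 for the stalk, where MRPL10 was not called (-0.30) and MRPL12 rose (0.84), and 2 falls and 0 rises of 4 for the peptidyl transferase side. They were 3 falls and 1 rise of 9 for the central protuberance, and 2 falls and 0 rises of 6 for the tunnel exit (median 0.20), where MRPL24 had 0.19 and was not called. With cyclic loess 21.9% of all genes fell in uninduced cells and 21.9% rose. In induced cells cyclic loess left MRPL12 called higher (1.42) and put MRPL11 past the threshold (0.62, limma adjusted p = 0.0481).

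The genes MRPS18A, MRPS18B and MRPS18C code for 3 related proteins. MRPS18B fell in uninduced cells (-1.39, limma adjusted p = 0.000273), with 3.69, 3.91 and 3.69 on uninduced Xrn1 arrays and 5.31, 4.63 and 5.51 on uninduced untreated arrays, which did not overlap. MRPS18A had -0.12 and MRPS18C 0.12 in uninduced cells, and neither was called. In induced cells none of the 3 was called, with 0.34 for MRPS18A, -0.33 for MRPS18B and -0.38 for MRPS18C (limma adjusted p = 0.452, 0.471 and 0.396). After cyclic loess the uninduced change of MRPS18B was -0.33 and was not called either (limma adjusted p = 0.283).

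Induction of K294A alone gave no member call. In induced untreated minus uninduced untreated arrays 0 members fell and 0 rose in limma, against 0.0296% and 0.0118% of all genes. At an unadjusted p under 0.05, 31 were lower and 0 higher, where 27.2% and 3.56% of all genes were. The groups did not overlap for 29 members that were lower and 0 that were higher, against 17.4% and 5.82% of all genes. The median change was -0.44 in members and -0.35 in all genes, and the lowest was MRPL48 at -1.34 (95% interval -2.01 to -0.67, limma adjusted p = 0.105). Without induced untreated replicate 3, 33 members fell and 37.9% of all genes. Between induced Xrn1 and uninduced Xrn1 arrays 0 members fell and 0 rose, against 0.00592% and 0.0533% of all genes, with 0 lower and 15 higher at an unadjusted p under 0.05, where 0.426% and 8.66% of all genes were. The groups did not overlap for 0 members that were lower and 31 that were higher, against 3.13% and 31.3% of all genes. The median change was 0.37 in members and 0.28 in all genes, and the highest was MRPS12 at 1.31 (limma adjusted p = 0.116). A fit of those 2 groups alone called 12 members higher, against 5.87% of all genes.

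Probe sets of 1 mRNA varied among themselves. Tested singly among 705699 probe sets, 93 of the members' 734 fell and 43 rose in induced cells (5.52% and 6.89% of all probe sets). In uninduced cells 207 fell and 22 rose (10.8% and 7.54%). Only 258175 of the 705699 had 1 gene symbol, so this background is unlike that of the tested genes. Its median change in uninduced cells was 0.18, where that of all tested genes was -0.27. The shares of probe sets are therefore not comparable with those of genes. In MRPL3 the single changes ran from -4.05 to 0.78 in induced cells and from -4.32 to 1.32 in uninduced cells. In MRPL20, whose 21 probe sets gave a gene change that was not called, they ran from -1.28 to 1.87 in uninduced cells, and 4 rose. MRPS28, not tested, had 3.32 ± 0.17 on induced Xrn1 arrays, 3.02 ± 0.70 on induced untreated arrays, 3.17 ± 0.28 on uninduced Xrn1 arrays and 3.60 ± 0.29 on uninduced untreated arrays (SD, n = 3) from its 1 probe set, and shared 4 more with TPD52.

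Gene span and base composition around the start were set beside the changes in induced cells, as a description. The 13 that fell had a median span of 16.4 kb and the 13 that rose 4.71 kb, with 8.61 kb for all tested members. The GC share of the window around the start had a median of 57.2% in 12 that fell and 69.0% in 12 that rose, and 60.3% in 69 members. Across the members the induced change correlated with the log10 span at r = -0.395 (n = 76) and with GC at r = 0.31 (n = 69), and across all genes at -0.27 and 0.01. These genes share the same arrays and are not independent.

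Other genes of mitochondrial translation were counted in 4 lists. In induced cells 1 of 5 ribosomal proteins with other names, 5 of 14 translation factors, 5 of 24 assembly factors and 4 of 16 mitochondrial tRNA synthetases fell, and 1, 1, 5 and 1 rose. Of all genes 17.8% fell there and 21.6% rose. In uninduced cells none of these genes rose on the deposited values, while after cyclic loess 1, 1, 2 and 3 rose and 1, 6, 7 and 5 fell in the lists in the same order. Of all genes 31.8% fell and 7.24% rose on the deposited values, and 21.9% went each way after cyclic loess. Of the 5 proteins with other names 3 fell on the deposited values, among them PTCD3 (-1.19), a small-subunit protein, and OXA1L (-1.99), the insertase that takes up nascent chains and was listed with them, while DAP3 had -0.73. Of the translation factors 10 fell, among them GFM2 (-1.21), a factor of ribosome recycling, MTFMT (-1.81), which formylates the initiator tRNA, and MTIF2 (-0.93), an initiation factor. Of the assembly factors 8 fell (33.3%), near the share of all genes, with NGRN (-2.35), FASTKD2 (-0.86) and NOA1 (-1.01) as the named ones. Of the synthetases 6 fell (37.5%), also near that share, among them IARS2 (-1.97), NARS2 (-2.20) and YARS2 (-1.88). AURKAIP1, of the first list, was not tested.

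The RNAs that the mitochondrial ribosome translates are coded in mitochondrial DNA and are not capped. All 10 tested ones fell in both sets of cells, with a median of -1.80 in induced and -3.27 in uninduced cells, and ND4 (-1.48 and -4.15), COX2 (-2.05 and -3.32) and ND2 (-1.57 and -3.73) as the named ones; ND3, ND4L and ATP8 were not tested. After cyclic loess 0 of 10 fell in induced and 6 in uninduced cells, where 21.9% of all genes fell in each. Cytosolic ribosomal protein genes had 18 falls and 10 rises of 70 in induced cells (median -0.30) and 43 falls in uninduced cells (61.4%, median -1.11). Nuclear subunits of oxidative phosphorylation had 15 falls and 18 rises of 79 in induced cells (median 0.15), and 41 falls and 1 rise in uninduced cells (median -0.85). Of all genes 17.8% fell and 21.6% rose in induced cells (median 0.10), near the 19% and 22.8% of the oxidative phosphorylation subunits. In uninduced cells 31.8% of all genes fell and 7.24% rose (median -0.27). The differences between these lists and the members were not tested.

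Members were mostly among the brighter genes, and the background changed with brightness. Of the 76, 38 were among the 4221 genes with the highest 12-array mean (3.95 or more). There 17 of the 38 members fell in uninduced cells (median -0.75), where 56.2% of all genes of that brightness did (median -1.0). Among the 4220 genes next in brightness (3.36 to 3.95) 9 of 22 members fell, where 34.9% of all genes did (median -0.70 for members and -0.38 for all). Of the 13 members at 2.91 to 3.36, 5 fell, where 24.3% of all genes did (medians -0.66 and -0.13). Below that 2 of 3 members fell, where 11.7% of all genes did. In induced cells 5 of the 38 brightest members fell and 7 rose, where 33.3% of all genes of that brightness fell and 17.7% rose.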

How the data were processed

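Exon arrays (12) were used, 3 in each of 4 groups taken from the labels. The authors deposited log2 values per probe set, made with RMA in oligo per the submitters' processing notes (version not given). The values were not normalised again. Of 1411399 probe sets, 357604 had 1 gene symbol, and symbols were updated to RefSeq names. Gene values were fitted with limma 3.58.1 (R 4.3.3; lmFit, eBayes) over all arrays and 4 group means, with Benjamini-Hochberg adjustment over 16883 genes for each contrast, threshold 0.05. The fit was run on simulated data with independent noise and the same spread for every gene. That run cannot show how the fit behaves with unequal spreads or with arrays that deviate together. limma estimated an infinite prior, so each gene received the common SD of 0.418, while members' own SDs ran from 0.193 to 0.653.

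The members, the gene lists and the settings were chosen with earlier results of these data known. Named genes are, for each contrast, the 10 members with the largest falls and rises among those called whose groups did not overlap (for the difference of both Xrn1 changes, called ones), the MRPS18 genes, the 2 members of each structural list and the 3 genes of each other list with the smallest p of the average; MRPL10, MRPL11, MRPL16, MRPL20 and MRPL24 where outside this rule, and RNGTT and KGD4, were named after their values were seen. Alternatives were the median of probe sets, no filter or an upper-quartile filter (2.76) on dim probe sets, 1 probe set per gene, centred arrays, cyclic loess, each gene's own spread, only the groups compared, replicate blocks, and leaving out arrays.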

Additional observations from a re-analysis of the deposited data

Results flagged for a closer look

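For 10 members the Xrn1 change in induced cells exceeded that in uninduced cells by a test of the difference itself (limma, adjusted over all genes). The differences on the log2 scale were 2.50 in MRPS12, 2.23 in MRPL48, 1.95 in MRPL57, 1.92 in MRPL50, 1.84 in MRPL42, 1.83 in MRPS2, 1.73 in MRPL38, 1.68 in MRPL34, 1.68 in MRPS31 and 1.67 in MRPL13. They are the largest of 29 members so called, where 20.6% of all genes were. With each gene's own spread none of them was called, and without uninduced replicate 2 of both kinds none was called. With the sample number in the titles as a block, MRPL42, MRPS2, MRPL38, MRPL34, MRPS31 and MRPL13 were not called (limma adjusted p of 0.0525 to 0.0633). The part of that pair of arrays in the result was not tested further.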

How the results depend on the processing

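Of 48 results on named members, cyclic loess kept 39 calls, each gene's own spread 24, centring 46 and leaving out uninduced replicate 2 of both kinds 38; the 1 change of sign was MRPL51 in the average under cyclic loess, 0.22. The cause of the changes below was not tested. The share of all genes called moved with the setting too, so the counts below do not describe members alone. On the deposited values 31.8% of all genes fell in uninduced cells, and 20.6% had a difference above 0. Under cyclic loess these shares were 21.9% and 0.977%. With own spread they were 25.4% and 0%.

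Under cyclic loess, uninduced Xrn1 gave 19 falls, 9 rises and a median member change of 2.6e-05, the average gave 19 rises and a median of -0.044, the difference of both Xrn1 changes 4 calls and a median of 0.20, and induction medians of -0.058 without and 0.057 with Xrn1. Centring gave 20 falls in induced cells, 6 rises and a median of -0.38 in uninduced cells, 9 rises in the average, -0.17 for induction without Xrn1, and 8 calls with a median of 0.51 for the difference. Own spread gave 3 falls and 3 rises in induced cells and 0 calls for the difference. The upper-quartile filter gave 1 rise in uninduced cells, 4 in the average and 13 calls for the difference; the median of probe sets gave 19 for it, and 1 kept probe set per gene gave 1 rise in the average. A fit of only the groups compared gave 12 rises for induction with Xrn1 and cannot serve the average or the difference. Without uninduced replicate 2 of both kinds the difference had 0 calls.

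Leaving out 1 array gave 5 to 21 falls, 5 to 16 rises and medians of -0.20 to 0.13 in induced cells; 28 to 39 falls, 0 rises and medians of -0.88 to -0.60 in uninduced cells; and 21 to 35 falls, 1 to 7 rises and medians of -0.53 to -0.28 in the average. Induction gave 0 to 33 falls, 0 rises and medians of -0.56 to -0.070 without Xrn1, and 0 calls and medians of 0.32 to 0.46 with Xrn1. The difference gave 2 to 37 calls above 0, 0 below and medians of 0.74 to 1.04. The share of all genes called also moved with the array left out. These ranges stand without that share, so they are not a result about members.

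The titles give each Xrn1 array the sample number of an untreated array. Same-numbered Xrn1 and untreated samples did not deviate together (correlations of -0.71 to 0.13, own number best in 1 of 6). Such correlations cannot decide whether same-numbered arrays are parts of the same RNA sample. The main fit left this pairing out, and fits with blocks are given beside it. With the replicate number as a replicate block there were 13 falls and 13 rises in induced cells, 32 falls in uninduced cells, 29 falls and 1 rise in the average and 26 calls for the difference. With the sample number as a replicate block there were 10 falls and 11 rises, 30 falls, 24 falls and 1 rise, and 4 calls. That block gives no value for induction. No share of all genes stands beside the counts of either block, so they are not a result about members.

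The number of arrays limits what can be seen: the standard error was 0.34 for 1 contrast and 0.48 for the difference, and values near the dim end have little room to fall.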
